A study of Mus musculus with 8 samples.

Results

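The genes described here are 10 genes of calcium entry, taken by symbol from 57010 genes counted: the voltage-gated calcium channel beta subunit genes Cacnb1, Cacnb3 and Cacnb4, the plasma membrane channel genes Orai1, Orai2 and Orai3, the store sensor genes Stim1 and Stim2, and the store release channel genes Itpr1 and Itpr3. Of the 10, 9 had a row in the authors' normalised table of 13751 genes. The tenth, Cacnb4, was read from the count files by its gene identifier. The same 9 passed the filter on low counts, which kept 13378 genes. The cells were naive CD4 T cells that had been sorted from peripheral lymph nodes of wild-type C57BL/6 mice. All were activated for 20 h in medium with 10% serum on coated anti-CD3 and anti-CD28, each at 4 µg/mL, and their total RNA was sequenced as mRNA libraries. The cells of 4 mice were each cultured without added iron (4 control libraries) and with it (4 FAC libraries, the labels' name for the iron supplement). Neither the dose of iron nor a vehicle in the control cultures is given in the labels. The comparison asks what iron does to the transcriptome of a T cell under activation. The set was chosen by known role in calcium entry around Cacnb3, which was itself selected on its FAC to control difference in these libraries. The other members were also chosen with earlier results of these data known, so the members' differences are descriptions and carry no test.

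Calcium entry in a T cell starts at the antigen receptor. Phospholipase C gamma makes inositol trisphosphate, which opens the inositol trisphosphate receptors (Itpr genes) and empties the endoplasmic reticulum of calcium. STIM proteins in the reticulum membrane sense the loss and open ORAI channels in the plasma membrane, and the calcium that enters acts through calmodulin and calcineurin on NFAT transcription factors. CACNB proteins are the cytoplasmic beta subunits of voltage-gated calcium channels, where they bind the pore-forming alpha1 subunit and bring it to the cell surface. They are best known from nerve and muscle and have also been studied in lymphocytes.

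Cacnb3 was the member that differed most between the cultures, and its annotated start regions are shown here beside that of Orai1, the most abundant member. The sequences are the 250 bases before a RefSeq gene start on GRCm38.p6, an earlier build than the GRCm39 named for the count files. RefSeq gives Cacnb3 2 starts, 2439 bases apart, and Orai1 1. Capitals mark GGAAA, the core of an NFAT site, and GGGCGG, the GC box bound by SP1-type factors, on either strand. These 2 motifs can share bases, which did not occur in the 3 windows.
Cacnb3, first start, chr15:98632078-98632327, plus strand: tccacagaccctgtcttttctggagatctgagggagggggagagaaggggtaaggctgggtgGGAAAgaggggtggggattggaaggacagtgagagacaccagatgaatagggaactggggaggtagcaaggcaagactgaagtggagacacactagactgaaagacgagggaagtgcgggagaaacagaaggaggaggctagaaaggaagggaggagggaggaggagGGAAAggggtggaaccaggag
Cacnb3, second start, chr15:98634517-98634766, plus strand: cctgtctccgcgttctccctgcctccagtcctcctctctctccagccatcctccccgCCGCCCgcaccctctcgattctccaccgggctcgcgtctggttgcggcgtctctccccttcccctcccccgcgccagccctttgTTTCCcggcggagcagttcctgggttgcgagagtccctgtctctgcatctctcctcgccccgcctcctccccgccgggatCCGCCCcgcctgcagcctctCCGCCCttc
Orai1, chr5:123014824-123015073, plus strand: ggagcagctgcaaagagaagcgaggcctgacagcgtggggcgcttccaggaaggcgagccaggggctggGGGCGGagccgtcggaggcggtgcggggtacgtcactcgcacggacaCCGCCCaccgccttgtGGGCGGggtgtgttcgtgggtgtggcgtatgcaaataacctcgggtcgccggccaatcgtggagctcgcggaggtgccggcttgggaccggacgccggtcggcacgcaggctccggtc
The first Cacnb3 window holds 2 NFAT cores and no GC box, at 56.0% G and C. The second holds 1 NFAT core and 3 GC boxes, at 70.4% G and C. In the Orai1 window there are 3 GC boxes and no NFAT core. Of 32851 promoter windows of this length, 55.6% hold the NFAT core and 32.7% the GC box, so both are common. Neither the AP-1 site TGANTCA (6.75% of windows) nor the cyclic AMP response element TGACGTCA (1.55%) was found on either strand in any of the 13 windows of the 9 members in the table. These matches describe letters only and say nothing of binding.

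Library totals ran from 25410267 to 37350609 counts, so that 3 counts, the limit taken for a count of 0, equal 0.0816 to 0.119 CPM (counts scaled to library size with TMM factors). Reads had no molecular identifiers, and such limits cover counting error only. The transferrin receptor gene Tfrc, whose transcript is degraded in iron-replete cells, was lower in FAC cultures (991 ± 34.6 and 572 ± 31.2 CPM, SD, n = 4). The T cell genes Cd3e, Cd4 and Lck averaged 201, 308 and 328 TPM over the 8 libraries (a level per transcript length). Of the listed markers of other cells, Lyz2 (myeloid cells), Siglech (plasmacytoid dendritic cells), Ncr1 (natural killer cells), Cdh5 and Pdgfra (endothelium and stroma) had 0 counts in all 8 libraries. Other markers of the same lists had counts. The summed level of 4 B cell markers was 0.0900 to 0.380 TPM in control and 0.130 to 0.400 TPM in FAC libraries, and that of 5 myeloid markers 2.36 to 3.11 and 2.95 to 4.93 TPM. Nearly all of the myeloid sum was Cd68, at 2.50 ± 0.365 TPM in control and 3.71 ± 0.858 TPM in FAC cultures. Cd68 was higher with FAC in 4 of 4 mice but did not pass (edgeR adjusted p = 0.260). The 8 T cell markers summed to 1902 to 1962 TPM in control and 2005 to 2112 TPM in FAC libraries, without overlap. They did not move together. Cd5 was higher with FAC (615 ± 14.7 and 711 ± 24.1 TPM, edgeR adjusted p = 0.0304) and Cd247 lower (113 ± 1.81 and 96.5 ± 4.51 TPM, edgeR adjusted p = 0.00453). The other 6 did not pass, though Cd28 did with the mouse number as a replicate block (edgeR adjusted p = 0.0410). With 1 library left out, Cd247 was called in 8 of 8 fits and Cd5 in 2 (edgeR adjusted p up to 0.127). The Cd5 call also ended without the filter on low counts (edgeR adjusted p = 0.0762). The 2 CD8 markers summed to 8.36 to 10.9 TPM in control and 6.60 to 9.55 TPM in FAC libraries, and the 4 endothelial or stromal markers, nearly all of it Pecam1 (202 to 327 counts in every library), to 3.37 to 4.62 and 3.77 to 5.50 TPM. Nearly all of the CD8 sum was Cd8b1, at 9.92 ± 1.18 and 8.27 ± 1.29 TPM. Cd8b1 was lower with FAC in all 4 mice but did not pass (edgeR adjusted p = 0.242). Of the markers of red cell precursors, Hba-a1 (46 counts) and Hbb-bs (29 counts) were found in control 3 alone, and Alas2 was at 0.750 TPM or less in all libraries. The part of these levels in the differences below was not tested.

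In the control cultures the members covered a wide range of levels per length. Orai1 stood first with a median of 78.1 TPM, above 84.6% of the tested genes. Next came Stim1 (29.4 TPM), Stim2 (25.4 TPM), Itpr1 (14.5 TPM) and Itpr3 (7.73 TPM). Each of these ranges over the 4 control libraries lay clear of the next, although Stim1 (27.2 to 31.4 TPM) and Stim2 (20.1 to 26.6 TPM) nearly met. Orai3 (median 5.48 TPM) and Orai2 (5.25 TPM) overlapped in range, as did Cacnb1 (1.20 TPM) and Cacnb3 (0.880 TPM). Cacnb3 was above 14.1% of tested genes in control and 22.6% in FAC cultures. Cacnb4 was last, at 0.0100 TPM or less in every library. The order was the same when counts per kilobase were scaled between libraries.

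**Figure D1:**
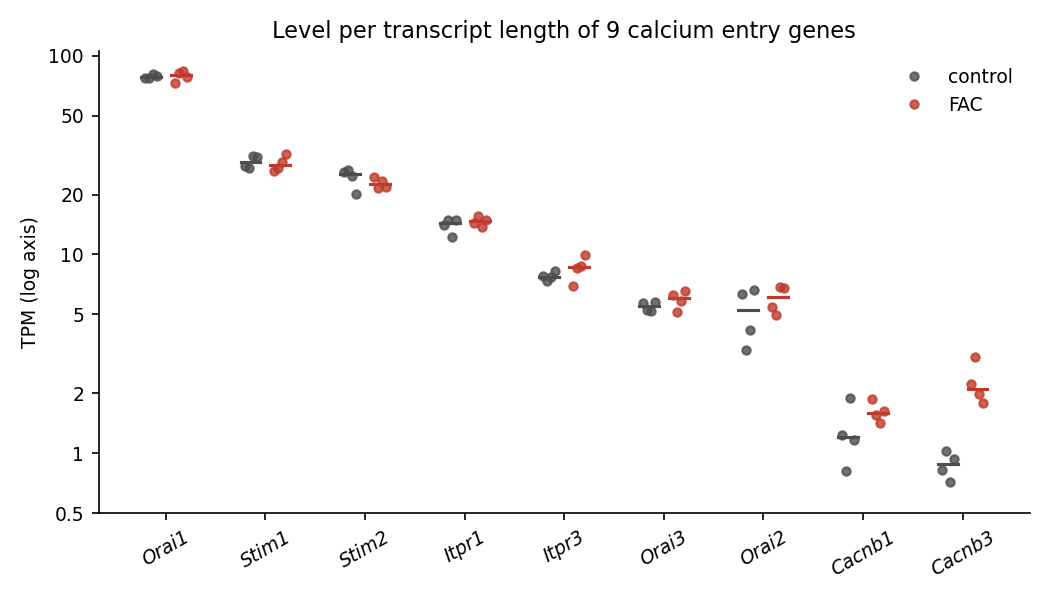
Level per transcript length (TPM, log axis) of 9 calcium entry genes in the 4 control and 4 FAC libraries; points are libraries and bars are medians. Orai1 lies near 78 TPM and Cacnb1 and Cacnb3 near 1 TPM in control cultures, and Cacnb3 is the gene whose points do not overlap between the groups; Cacnb4, at 0.0100 TPM or less, is left out.

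Cacnb3 (ENSMUSG00000003352), which encodes the beta 3 subunit, was higher with FAC in the cultures of all 4 mice. The control libraries of mice 1 to 4 held 36, 69, 37 and 45 counts, or 1.43, 1.88, 1.22 and 1.58 CPM. The FAC libraries held 106, 162, 89 and 79 counts, or 3.37, 4.97, 3.06 and 3.09 CPM. The lowest FAC library was thus above the highest control library, a separation in this direction that 6.17% of tested genes showed, while 14.7% were higher with FAC in all 4 mice. FAC 2 and control 2, both from mouse 2, were the highest of their groups. Means were 1.53 ± 0.277 and 3.62 ± 0.909 CPM (SD, n = 4), a fold of 2.36 (log2 change 1.24, SE 0.21, 95% interval 0.79 to 1.70). In bulk RNA, a change in the number of cells that express a gene and a change in the RNA per cell cannot be told apart. The 2 cultures of a mouse are separate cultures of 1 animal's cells, and the spread given is between cultures.

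The edgeR fit over all genes called 438 genes, 3.27% of those tested (2.18% higher and 1.1% lower with FAC), and Cacnb3 was the 1 member among them. Because Cacnb3 was selected on this difference, its call, interval and refits are descriptions and lend no support. By mouse, the FAC to control ratio of Cacnb3 was 2.36 (counting interval 1.60 to 3.55), 2.65 (1.99 to 3.56), 2.51 (1.69 to 3.79) and 1.95 (1.34 to 2.88). These exact binomial 95% intervals cover counting error only, and they overlap between the 4 mice. A log2 change at least as large was found in 69 genes (0.516% of those tested). The fitted change ranged from 1.04 (without FAC 2) to 1.37 (without control 2) when 1 library at a time was left out.

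**Figure D2:**
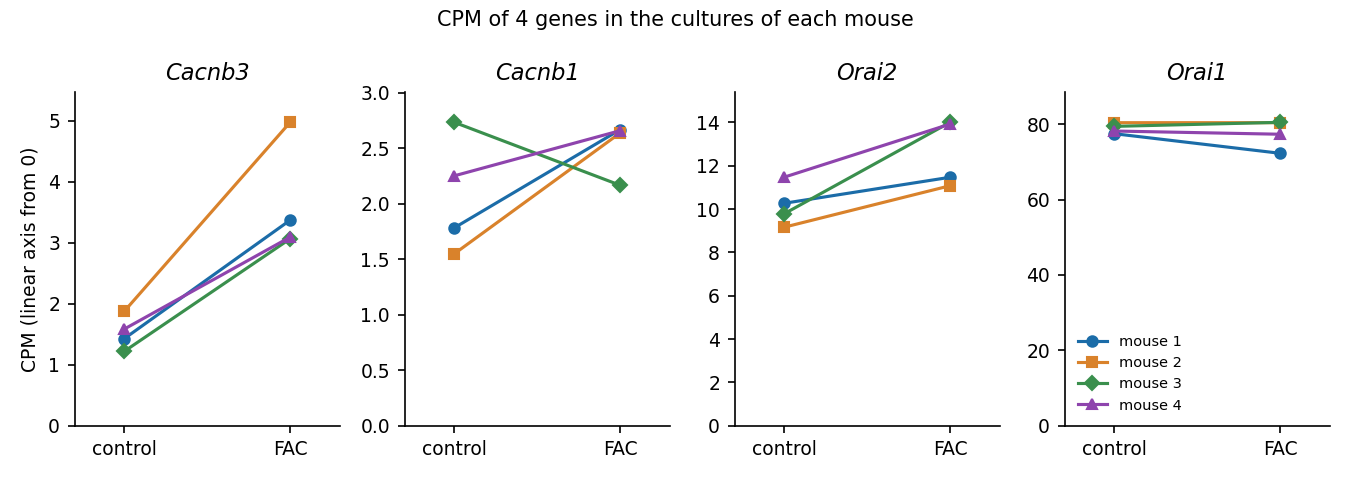
CPM (linear axis from 0) of Cacnb3, Cacnb1, Orai2 and Orai1 in the control and FAC culture of each mouse, joined by a line. All 4 lines of Cacnb3 climb, from 1.22 to 1.88 CPM up to 3.06 to 4.97 CPM; those of Cacnb1 cross, those of Orai2 climb less, and those of Orai1 are nearly flat.

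Per transcript length, Cacnb3 stood at 0.820, 1.02, 0.720 and 0.940 TPM in control mice 1 to 4 and at 2.23, 3.06, 1.99 and 1.78 TPM in the FAC cultures. The groups were again apart on this scale. RSEM's length for a gene is the mean over its transcripts weighted by their estimated abundance, and the files list 7 transcripts for Cacnb3. That length was 2530 to 2627 bases in control and 2295 to 2605 bases in FAC libraries, shorter with FAC in 3 of 4 mice. The estimate rests on few reads, the ranges overlap, and which start was used was not tested. In the authors' normalised signal, Cacnb3 was 41.1, 53.3, 35.8 and 46.5 in control and 110 (109.6), 150 (149.8), 95.5 and 87.4 in FAC mice 1 to 4.

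The other beta subunit genes did not follow Cacnb3 beyond the spread between libraries. Cacnb1, the beta 1 subunit gene known from skeletal muscle, was at 1.78, 1.55, 2.74 and 2.25 CPM in control mice 1 to 4. With FAC it was at 2.67, 2.64, 2.17 and 2.66 CPM, higher in 3 of 4 mice and lower in mouse 3. The groups overlapped, with control 3 above all FAC libraries and control 4 above FAC 3 (log2 change 0.29, SE 0.20, 95% interval -0.15 to 0.72). For Cacnb4, a beta subunit gene best known from brain, the control libraries held 1, 3, 0 and 0 counts and the FAC libraries 0, 2, 0 and 0. It was at or under the limit of 3 counts everywhere, so no fold is given. Summed over the 4 beta subunit genes, Cacnb2 included, the level was 1.86 to 2.7 TPM in control and 3.42 to 4.62 TPM in FAC libraries. Cacnb3 made up 26.7% to 54.8% of that sum in control and 52.0% to 66.2% in FAC libraries, a larger share in 4 of 4 mice but with overlapping ranges.

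In voltage-gated calcium channels beta subunits act with a pore, and the 10 alpha1 pore subunit genes were almost all absent from the reads. No library held a count of Cacna1b, Cacna1e, Cacna1f or Cacna1h, which at the limit of 3 counts allows 0.0816 to 0.119 CPM. Cacna1c, Cacna1d, Cacna1g, Cacna1i and Cacna1s reached at most 7 counts in any library and were not tested. Cacna1a, the pore gene of P/Q-type channels, was the exception, with 51, 99, 92 and 66 counts in control mice 1 to 4 and 120, 93, 107 and 54 with FAC. Its CPM was 2.52 ± 0.439 in control and 3.12 ± 0.792 in FAC cultures (SD, n = 4), and the ranges overlapped (log2 change 0.31, SE 0.21, 95% interval -0.14 to 0.75, edgeR adjusted p = 0.467). Of 13 further auxiliary subunit genes, 8 had 0 counts in all libraries and 1 passed the filter, the alpha2delta gene Cacna2d4 (log2 change 0.08, SE 0.32, edgeR adjusted p = 0.923). Cacnb2 and Cacna2d2 were detected but reached at most 8 and 10 counts in a library.

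Among the store release channels, Itpr1 was at 56.6, 50.5, 49.5 and 50.7 CPM in control mice 1 to 4 and at 54.1, 55.6, 53.6 and 52.8 CPM with FAC. Control 1 was the highest library of all, and the groups overlapped (log2 change 0.06, SE 0.05, 95% interval -0.05 to 0.17). Itpr3 was at 49.2, 42.4, 48.6 and 52.3 CPM in control and at 43.1, 53.4, 53.8 and 52.6 CPM in FAC cultures. FAC 1 was low and the other FAC libraries lay above the control range, control 4 lying close below them (log2 change 0.08, SE 0.08, 95% interval -0.09 to 0.25). Itpr2, the third receptor of this family and not one of the 10, was at 31.1 ± 3.06 CPM in control and 35.6 ± 2.63 CPM in FAC cultures without overlap, but did not pass the test (log2 change 0.20, SE 0.08, edgeR adjusted p = 0.178). Per length it was at 5.83 ± 0.918 and 5.91 ± 0.576 TPM. Of the family's summed TPM, Itpr1 made up 50.7% ± 3.69 in control and 50.4% ± 3.22 in FAC libraries, and Itpr3 28.2% ± 1.28 and 29.2% ± 2.83 (SD, n = 4).

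The store sensors hardly differed. Stim1 encodes the main sensor of T cells and was at 66.0, 65.8, 67.5 and 73.5 CPM in control mice 1 to 4. With FAC it was at 62.6, 65.7, 67.4 and 73.3 CPM, so that mouse 4 was highest in both groups and the cultures of mice 2, 3 and 4 nearly coincided (log2 change -0.02, SE 0.06, 95% interval -0.14 to 0.10). Stim2, a sensor that responds to smaller losses of stored calcium, was at 47.2, 44.7, 41.3 and 43.6 CPM in control and 44.3, 45.8, 40.7 and 40.3 CPM in FAC cultures (log2 change -0.05, SE 0.06, 95% interval -0.17 to 0.08). Its groups overlapped as well. Per length, the Stim1 to Stim2 ratio was 1.02 to 1.53 in control and 1.07 to 1.47 in FAC libraries.

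Orai1, the pore of the main store-operated channel of T cells, differed little between the groups. It was at 77.5, 80.4, 79.4 and 78.2 CPM in control mice 1 to 4 and at 72.3, 80.4, 80.5 and 77.3 CPM with FAC. FAC 1 was the low library and the others lay close to the control range (log2 change -0.02, SE 0.04, 95% interval -0.12 to 0.07). Orai3, a related channel gene, was at 7.61, 7.23, 6.85 and 7.60 CPM in control and 8.16, 6.81, 7.54 and 8.53 CPM in FAC cultures (log2 change 0.08, SE 0.10, 95% interval -0.14 to 0.30). Its ranges overlapped. By level per length, Orai1 made up 86.4% to 90.0% of the 3 genes' sum in control and 85.5% to 89.0% in FAC libraries. Orai1 exceeded Cacnb3 in TPM by 75.8 to 112 times (111.9 at most) in control and by 26.7 to 44.1 times in FAC libraries.

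Orai2, whose product can join Orai1 in mixed channels, was higher with FAC by less than Cacnb3. It was at 10.3, 9.17, 9.79 and 11.5 CPM in control mice 1 to 4 and at 11.5, 11.1, 14.0 and 13.9 CPM with FAC. All 4 mice had more in the FAC culture, the largest step being in mouse 3, but control 4 was above FAC 2 (log2 change 0.31, SE 0.11, 95% interval 0.08 to 0.54). Orai2 was not among the genes called on the group alone. With the mouse number as a replicate block it was called (log2 change 0.31, SE 0.09), 1 of 2 members among the 6.87% of genes called there (4.07% higher, 2.8% lower). That call ended in all 4 of the fits with the block that left out a mouse. Per transcript length the pattern was not the same, with 6.32, 3.31, 4.17 and 6.66 TPM in control and 5.46, 4.96, 6.83 and 6.75 TPM in FAC mice 1 to 4. RSEM's length for Orai2 varied from 2416 to 3880 bases over the control libraries and from 3064 to 3317 bases over the FAC libraries. With each library's gene length as an offset the log2 change was 0.21 and the gene was not called.

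**Figure D3:**
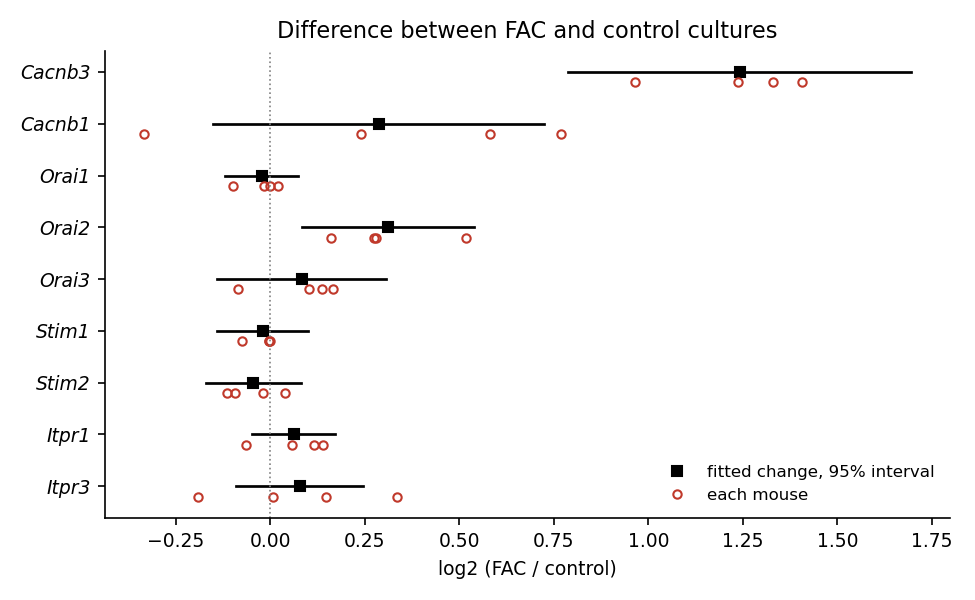
Log2 of FAC over control for the 9 tested members; squares are the edgeR fit on the group alone with its 95% interval (lines), and open circles are the 4 mice. Cacnb3 lies at 1.24 with all 4 mice at 0.96 or more, Orai2 at 0.31, and the intervals of the other 7 members include 0.

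Over the 9 tested members the median log2 change was 0.08, against 0.00 (-0.0014) over all tested genes, and 6 of 9 changed by less than 0.25 in either direction, as did 10738 of the 13378 genes. The 95% intervals of Orai1, Stim1, Stim2, Itpr1 and Itpr3 all ended within 0.25 of 0. The intervals of Cacnb1 and Orai3 were wider and reached 0.72 and 0.30.

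Other genes of the pathway, 112 in 7 lists that hold none of the 10, were chosen with earlier results of these data known. Of these, 64 were tested, 25 had 0 counts in all libraries, and 2 passed the test (background 3.27% of tested genes): Mcoln1 rose and Atp2a2 fell. The median log2 change was -0.01, and 61 of 64 changed by less than 0.25. Mcoln1, which encodes a lysosomal channel for calcium and iron ions, stood at 17.4 ± 1.86 CPM in control and rose to a mean of 22.0 ± 0.887 CPM with FAC, in 4 of 4 mice. The edgeR adjusted p was 0.0339 (log2 change 0.34, SE 0.08). Leaving out FAC 2, FAC 3, control 1, control 2 or control 3 ended the call, at an edgeR adjusted p of up to 0.129 without FAC 3. Atp2a2 encodes SERCA2, the pump that refills the endoplasmic reticulum. Its mean was 609 ± 16.5 CPM in control and 548 ± 5.29 CPM with FAC, lower in 4 of 4 mice and without overlap (a separation downwards that 4.89% of tested genes showed). The edgeR adjusted p was 0.0227 (log2 change -0.15, SE 0.03). Leaving out FAC 2, FAC 3, control 1, control 3 or control 4 ended the call, at an edgeR adjusted p of up to 0.0892 without FAC 2. Both calls also ended in limma on TPM, and that of Mcoln1 with the length offset and in limma on the authors' signal.

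Of all tested genes edgeR called 3.27%, and 2463 of 13378 had an unadjusted edgeR p under 0.05. DESeq2 called 797 of the 13378 and limma-voom 430. Upstream and beside the channels, edgeR called 0 of 15 tested partners of store-operated entry and release, as did DESeq2 and limma-voom, with 2 at an unadjusted edgeR p under 0.05. The 3 most abundant were Esyt1, a tether between reticulum and plasma membrane (-0.04), Saraf, which restrains store-operated entry (0.01), and Ahcyl1, a partner of the inositol trisphosphate receptor (0.02). The intervals of these 3 log2 changes lay between -0.11 and 0.11. Among 6 tested genes of pumps and exchangers, Atp2a3, the SERCA3 gene, stood at 0.08 (edgeR adjusted p = 0.416). Atp2c1, a Golgi pump gene, stood at -0.06 (edgeR adjusted p = 0.598).

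In the mitochondria, the list of the uniporter and other calcium genes held 7 tested genes. Of these edgeR called 0, as did DESeq2 and limma-voom, and 0 had an unadjusted edgeR p under 0.05. The shares over all tested genes were 3.27% called by edgeR and 2463 of 13378 at an unadjusted edgeR p under 0.05. DESeq2 called 797 of the 13378 and limma-voom 430. Mcu, the pore of the uniporter, was at 37.8 ± 0.474 and 38.2 ± 2.09 TPM, its essential partner Smdt1 at 103 ± 4.14 and 99.6 ± 13.2 TPM, and Letm1 at 75.0 ± 2.92 and 71.7 ± 5.45 TPM in control and FAC cultures (SD, n = 4). Of 12 other channels tested, Mcoln1 was the 1 that edgeR called, and 3 had an unadjusted edgeR p under 0.05. Their median log2 change was 0.12. The change was positive in 11 of the 12, and in 6639 of the 13378 tested genes. The potassium channels Kcna3 and Kcnn4 keep the membrane negative and so drive calcium in. Kcna3 was at 47.6, 33.6, 45.5 and 46.3 CPM in control mice 1 to 4 and at 48.3, 57.9, 62.3 and 49.3 CPM with FAC. These groups did not overlap, but control 1 and FAC 1 nearly met, and the gene did not pass (log2 change 0.34, SE 0.11, edgeR adjusted p = 0.110, and 0.0523 with the replicate block); DESeq2 called it (adjusted p = 0.0302), as did edgeR without the filter on low counts (adjusted p = 0.00122). Kcnn4 stood at 0.00 (SE 0.04, edgeR adjusted p = 0.985) and the mechanically gated channel gene Piezo1 at 0.06 (SE 0.07, edgeR adjusted p = 0.669).

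Downstream of calcium, edgeR called 0 of 22 tested calmodulin, calcineurin and NFAT genes, limma-voom 0 and DESeq2 1, with 5 at an unadjusted edgeR p under 0.05. Across all tested genes edgeR called 3.27%, and 2463 of 13378 had an unadjusted edgeR p under 0.05. DESeq2 called 797 of the 13378 and limma-voom 430. Nfatc1, a calcium-driven transcription factor of activated T cells, was at 269 ± 6.46 CPM in control and 246 ± 7.51 CPM in FAC cultures and lower in 4 of 4 mice. It did not pass on the group alone (log2 change -0.13, SE 0.04, edgeR adjusted p = 0.0701) and passed with the replicate block (edgeR adjusted p = 0.0236). The calmodulin gene Calm2 stood at -0.12 (edgeR adjusted p = 0.157), and Fkbp1a, which encodes the protein through which tacrolimus inhibits calcineurin, at -0.02 (edgeR adjusted p = 0.796). Calm2 passed when FAC 1 was left out (edgeR adjusted p = 0.0442).

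**Figure D4:**
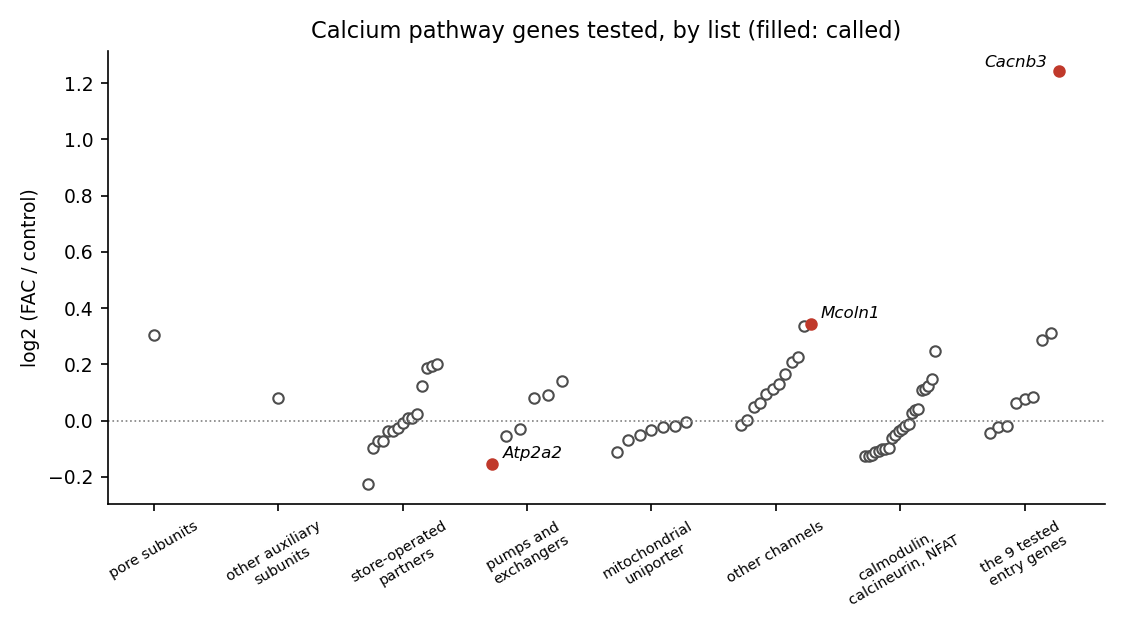
Log2 of FAC over control for the 64 tested pathway genes by list and for the 9 tested calcium entry genes; each point is a gene and filled points passed the edgeR test at an adjusted p under 0.05. Cacnb3 at 1.24 lies above all other points, Mcoln1 is at 0.34 and Atp2a2 at -0.15, and 61 of the 64 pathway genes lie within 0.25 of 0. Cacnb3 was selected on this difference, so its filled point is a description and not a test.

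The genes beside Cacnb3 on chromosome 15 showed smaller differences, and none passed in the edgeR fit on the group alone with all libraries. Of all tested genes edgeR called 3.27%, and 2463 of 13378 had an unadjusted p under 0.05. DESeq2 called 797 of the 13378, and edgeR with the replicate block called 6.87%. Of the 3 nearest protein-coding genes on each side in GENCODE M21, 4 were tested and edgeR called 0 on the group alone, with 1 at an unadjusted p under 0.05. That gene, also called by DESeq2 and with the replicate block, was Adcy6, an adenylate cyclase gene next to Cacnb3 on the opposite strand. It was at 19.1 ± 1.06 CPM in control and 22.8 ± 1.58 CPM in FAC cultures. Its log2 change was 0.26 (SE 0.07, edgeR adjusted p = 0.0640, and 0.0213 with the block). Adcy6 was higher with FAC in 4 of 4 mice, as were 14.7% of tested genes. Its groups did not overlap, a separation in this direction that 6.17% of tested genes showed. Without FAC 1 it passed on the group alone (edgeR adjusted p = 0.0395). Ddx23, the neighbour on the other side, stood at -0.02 (SE 0.03, edgeR adjusted p = 0.788), Rnd1 at -0.07 (edgeR adjusted p = 0.897) and Ccnt1 at -0.10 (edgeR adjusted p = 0.586). Ccdc65 and 4930415O20Rik held at most 1 count in any library and were not tested. In that annotation, no gene that was also counted here overlapped Cacnb3.

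By correlation of log2 CPM over the 8 libraries, the genes most like Cacnb3 among 9680 compared were Pan3 (r = 0.98), Psd (r = 0.98), Ppp1r18 (r = 0.97), Bin2 (r = 0.97) and Nop56 (r = 0.97). Pan3 encodes a subunit of a poly(A) nuclease, Psd an exchange factor for ARF6, Bin2 a membrane-curving protein and Nop56 a core protein of small nucleolar particles. In each of these 5 genes FAC 2 was the highest library, as it was for Cacnb3, a likeness that their choice by correlation favours. Their log2 changes were smaller, at 0.21, 0.51, 0.13, 0.13 and 0.06 in that order. Of the members, Orai2 (r = 0.54) and Itpr1 (r = 0.52) were the most like Cacnb3 and Stim1 (r = -0.22) the least. Among the 9680 genes compared, Orai2 ranked only 1366, Itpr1 1483 and Stim1 5745, so no member stood out for likeness to Cacnb3. These values describe 8 libraries of 2 groups, and genes are not independent replicates.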

How the data were processed

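RNA-seq libraries were made from 250 ng of total RNA with a stranded mRNA kit, per the labels' protocols. Build GRCm39, STAR 2.7.6a and RSEM 1.3.1 stand in the submitters' processing notes, beside DESeq2 1.26.0, DESeq, R 3.6.3 and FastQC, without roles; the sources used here do not give annotation or strand setting. The authors deposited RSEM output with expected counts, TPM and gene length in bases, per the file headers. The authors' deposited table also holds a normalised signal, whose scaling is not described in the sources used here.

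The 10 members and all gene lists were chosen with earlier results of these data known. Expected counts were rounded and tested with edgeR 4.0.16 (R 4.3.3; quasi-likelihood, TMM factors, group alone, minimum count 10 and total 15, Benjamini-Hochberg adjusted p under 0.05 over 13378 genes). Intervals of a log2 change are the change ± its SE (change over the root of F) times the t quantile. Alternatives were other factors, filters, lengths, units and tools (DESeq2 1.42.0, limma 3.58.1), leaving out libraries, and the mouse number as a replicate block. Named pathway genes were those called with or without the block and the 3 most abundant of each list (some items are not reported here); the neighbours of Cacnb3 and the 5 genes most correlated with it (mean log2 CPM at least 1, established symbols) were also named. The libraries of a mouse come from the same animal, per the labels; deviations from group means correlated at 0.14, 0.02, 0.06 and 0.14 within mice 1 to 4. The fit was also run on counts simulated with its own estimates of spread and no difference between mice. That run cannot show how the fit treats cultures paired by mouse. Symbols came from the deposited table, then GENCODE M21.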

Additional observations from a re-analysis of the deposited data

Results flagged for a closer look

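In a group of 4 libraries, a value was singled out when its gap to the nearest other exceeded Dixon's 95% critical value as a share of the group's range. Of 64 groups examined this way, 6 held such a value, where chance gives about 1 in 20. FAC 2 was high for Cacnb3, at 4.97 CPM against 3.06 to 3.37 CPM in the other FAC libraries (gap 0.840 of the range); without FAC 2 the log2 change was 1.04. FAC 3 was low for Cacnb1, at 2.17 CPM against 2.64 to 2.67 CPM (gap 0.941). Control 1 was high for Itpr1, at 56.6 CPM against 49.5 to 50.7 CPM (gap 0.831). FAC 1 was low for Itpr3, at 43.1 CPM against 52.6 to 53.8 CPM (gap 0.883). Control 2 was low for Kcna3, at 33.6 CPM against 45.5 to 47.6 CPM (gap 0.850). FAC 4 was high for Letm1, at 129 CPM against 121 to 122 CPM (gap 0.927).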

How the results depend on the processing

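The log2 change of Cacnb3 was 0.79 in limma on log2(TPM + 1), a scale that understates changes of low genes, and 1.23 to 1.33 in the 8 other alternatives to the scaling, filter, unit, tool and block. Stim2 moved from -0.05 to -0.14 with the length offset and to -0.14 in limma on the log2 signal, without a call. With the replicate block 2 members were among the genes called, in place of 1. Orai2 exceeded Cacnb1 as reported (0.31 and 0.29) and fell below it with the length offset (0.21 and 0.32), in limma-voom (0.31 and 0.33) and in limma on log2(TPM + 0.1) (0.27 and 0.37) and on the log2 signal (0.23 and 0.35). All genes called numbered 438, against 797 (DESeq2), 736 (no filter), 919 (replicate block), 187 (length offset), 138 and 144 (limma on log2(TPM + 0.1) and log2(TPM + 1)) and 156 (limma on log2 signal); without 1 library the count was 147 to 549, and with the replicate block without 1 mouse 165 to 1217. Of the calls, 66.4% were higher, against 78.3% and 77.8% in the TPM fits. The 2 called pathway genes became 4 in DESeq2 (Kcna3 and Nfatc1 added), 3 without the filter (Kcna3 added), 1 with the length offset and in limma on the log2 signal, and 0 in both limma fits on TPM (9 at an unadjusted p under 0.05 in each). Without 1 library they were 0 to 3, and with the replicate block without 1 mouse 0 to 5; the counts of 0 came without control 1 or 3 or FAC 2 or 3 (5 to 10 at an unadjusted p under 0.05) and, with the block, without mouse 3 (10). Leaving out mice under the block was an alternative chosen after seeing the data. At 36 to 162 counts, Cacnb3 is measured with wide counting error, and Cacnb4 and most pore subunit genes are below the tested range.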
